A study of Drosophila melanogaster with 999 samples.

Results

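The motoneurons (MNs) described here were those that carried Ubx without abd-A or Abd-B. They were 74 cells, or 7.41% of the sequenced MNs of the Drosophila melanogaster embryo that the authors kept after filtering. The members were chosen by their measured reads, at least 10 of Ubx and fewer than 10 of twit, Vmat, abd-A and Abd-B, so that the levels of these genes are a description and no finding. All MNs came from 1 pool of embryos aged 19 to 20 h, in which OK371-GAL4 drove RFP. This driver follows the vesicular glutamate transporter gene VGlut, and live nucleated RFP-positive cells were sorted singly into 96-well plates. No mutant, treated or otherwise altered group was part of the sort, and no label named the embryo, the segment or the muscle target of a cell. Libraries were made by SMART-Seq2, which reads full-length cDNA of 1 cell per well, with extra primers for the Hox genes Ubx, Antp, abd-A, Abd-B, Scr, Dfd and lab. Those primers raise the counts of the 7 Hox genes, and Hox reads were therefore compared between cells and not with other genes.

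Hox genes encode homeodomain transcription factors that give the segments along the body axis their identities. Ubx acts in the posterior thorax and the anterior abdomen, overlapping in front with Antp and behind with abd-A, and in many tissues the more posterior Hox genes repress the more anterior ones. In the nerve cord Hox genes are known to affect which neurons are born, which survive and which muscles their axons reach, and Ubx works on many target genes together with the cofactors Exd and Hth.

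The Ubx MNs were 10.1% of the MNs with low twit and Vmat (exact 95% interval 8.01 to 12.5%), and 17.4% (13.9 to 21.4%) of those among them with at least 10 reads of any of the 7 targeted Hox genes. The remaining Hox MNs, whose number the methods give, served as the comparison. By their most posterior Hox gene they were 85 anterior MNs (lab, Dfd or Scr only), 45 Antp MNs, 100 abd-A MNs and, for the rest, Abd-B MNs. Ubx MNs were found on 15 of the 16 plates, with 0 to 12 per plate. Since all cells came from 1 pool, the cells are not replicates of a condition, no p-value was computed, and every interval covers counting error only.

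Depth was alike on both sides of the comparison. Total counts per Ubx MN ranged from 106355 to 1584880 with a median of 348408, against a median of 348863 in the other Hox MNs. A median of 1150 genes had at least 10 reads in the Ubx MNs and 1112 in the others, and ribosomal RNA took a median of 33.3% and 33.8% of the counts.

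The Ubx MNs carried genes of glutamatergic neurons. VGlut, which the driver follows, had at least 10 reads in 71 of 74 cells (95.9%). The synaptic vesicle protein gene nSyb was detected in 72 (97.3%). Of the motoneuron markers, zfh1 was in 28 Ubx MNs (37.8%) and Oli in 20 (27%), against 31.9% and 24.2% of the other Hox MNs. The name MN therefore follows the sort. The pan-neuronal RNA-binding protein gene elav was detected in 53 cells (71.6%), against 81.2% of the other Hox MNs. Genes of other transmitters were rarer. ChAT, which makes acetylcholine, was detected in 9 Ubx MNs (12.2%, against 14.2% of the other Hox MNs), and VAChT, the other cholinergic marker, in 6. VGAT, the vesicular GABA transporter, was in 13 (17.6%, against 19.9%), but Gad1, the other GABAergic marker, in 2. Of the aminergic markers Tdc2, which makes tyramine, was in 1, Tbh in 4, and ple and DAT in 0. Of 8 glial markers 2 were in the table. The blood-brain barrier receptor gene moody was in 1 Ubx MN, while nrv2, an ion pump subunit gene, was in 43 (58.1%), against 59% of the other Hox MNs. The summed level of both ran from 0 to 832.3 normalised counts (counts scaled to the same total per cell) with a median of 35.4, against 0 to 7835 and 27.6 in the others. The single muscle marker in the table, bt, was in 1 Ubx MN, and Ppn of the hemocyte list was in 0, which allows a share of up to 4.86%. Of the neuroblast list mira was in 0 as well and stg, a cell cycle phosphatase gene, in 1 Ubx MN (1.35%) against 1.14% of the others.

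Ubx, on chromosome arm 3R from 16656623 to 16734426 on the minus strand (BDGP6.54), had 10 to 3802 reads per Ubx MN, with quartiles of 170 and 682.8 reads. Per 10000 counts of a cell this was 0.12 to 41.8 reads with a median of 11.4. Most members lay far from the threshold. Only 3 cells had 10 to 19 reads of Ubx, 3 had 20 to 49 and 68 had 50 or more. Just outside it, 2 MNs with low twit, Vmat, abd-A and Abd-B had 5 to 9 Ubx reads. On the posterior side, 13 members had 1 to 9 reads of abd-A or Abd-B, with 9 as the highest value. Of the MNs kept out by abd-A or Abd-B although they had Ubx, 10 had the higher of both at 10 to 19 reads. Among all MNs with low twit and Vmat and at least 10 Ubx reads, the members were 32% (26.1 to 38.5%). Ubx reads followed depth in part, with a Spearman rank correlation of 0.49 between Ubx reads and total reads over the 74 cells.

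**Figure D1:**
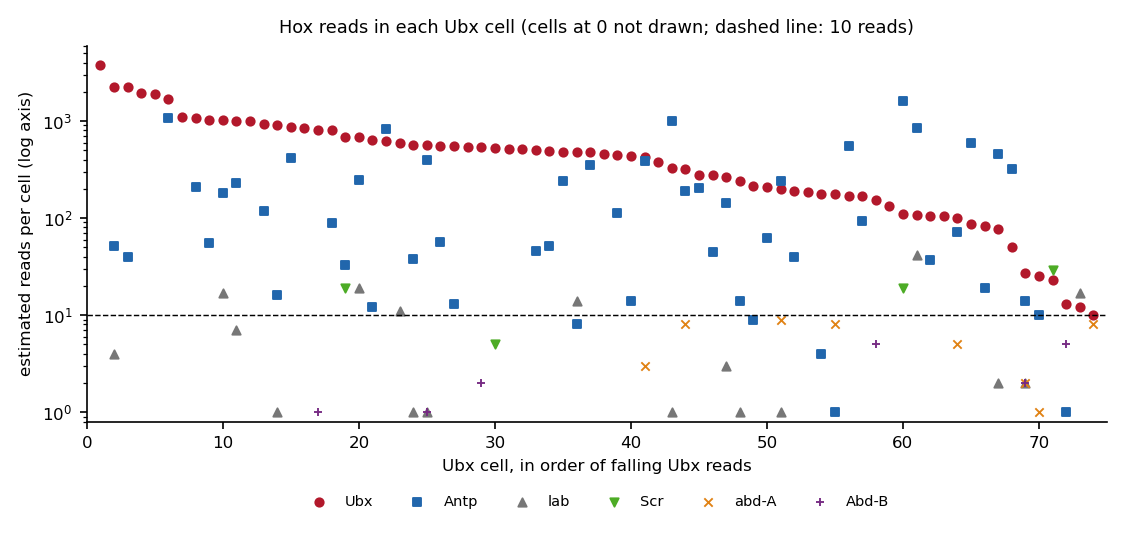
Estimated reads of 6 Hox genes (log axis) in each of the 74 Ubx MNs, placed along the horizontal axis by falling Ubx reads, with cells at 0 not drawn and the dashed line at 10 reads. Ubx falls from 3802 to 10 reads, Antp lies at or above the line in 47 cells with no order along the axis, and abd-A and Abd-B stay at 9 reads or fewer by the rule.

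Antp, the Hox gene of the more anterior thorax, was the usual partner of Ubx. It had at least 10 reads in 47 of the 74 Ubx MNs (63.5%, 51.5 to 74.4%), where it ranged from 10 to 1599 reads, with a median of 3.70 reads per 10000 counts. Ubx and Antp were the only targeted Hox genes in 42 cells, and Ubx stood alone in 23. The other 9 cells had lab with Antp and Ubx (3), lab with Ubx (3), Scr with Antp and Ubx (2) or Scr with Ubx (1). Both anterior genes were low in them, lab at 11 to 42 reads and Scr at 19 to 29, and Dfd was in 0 Ubx MNs. The gene pb, a Hox gene without added primers, was in 7 Ubx MNs at 8.98 to 37.1 reads per 10000 counts (9.46%, 3.89 to 18.5%), against 9.12% of the other Hox MNs.

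Within the 47 cells that held both, the genes showed little relation across cells (Pearson r of the log2 levels 0.02, Spearman rank correlation −0.17, n = 47 cells of the same pool and plates). After scaling each cell to the same total, Antp had a median of 125.9 normalised counts in the Ubx MNs with Antp, with quartiles of 36.2 and 399.6. The median was 111.4 in the 45 Antp MNs, 162.1 in the 70 abd-A MNs with Antp and 243.3 in the 63 Abd-B MNs with Antp. These quartile ranges overlapped throughout. For Ubx the median was 388.9 normalised counts in the Ubx MNs, 282.2 in the 90 abd-A MNs with Ubx and 200.9 in the 67 Abd-B MNs with Ubx, with ranges that also overlapped (4.15 to 1425, 31.9 to 1142 and 11.9 to 1081).

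The first comparison asked which other genes were detected more or less often in Ubx MNs than in the other Hox MNs. A gene passed the size rule where the share of cells with at least 10 reads differed by at least 10 percentage points and by at least 1.5 times. Of 6701 genes, 15 were past it as more often detected (0.224% of the genes compared) and 67 as less often detected (1%), together 1.22%, and the median difference over all genes was −0.79 points. Differences of single genes were small against the precision of 74 cells, since the interval of a difference past the rule reached a median of 10.1 points to each side. Whether any exceeds what choosing the largest of 6701 differences gives was not tested. At 15 points and 2 times the counts were 0 and 2. For the 61 Ubx MNs without any read of abd-A or Abd-B, with the 13 others moved to the comparison, they were 85 and 56, so that the more often detected genes outnumbered the less often detected ones. The counts also moved with single plates. Without plate 3, 6, 7 or 17 the more often detected genes numbered 35, 28, 25 and 23, and without plate 13 or 14 the less often detected ones made up 1.71% and 1.75%.

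UGP, which makes the UDP-glucose used for glycans and glycogen, had the widest difference among the more often detected genes. It was found in 36 Ubx MNs (48.6%) at 0.433 to 13.5 reads per 10000 counts with a median of 3, and in 30.2% of the other Hox MNs at 0.129 to 10 reads with a median of 2.09. The levels of cells with UGP thus overlapped, and more Ubx MNs reached 10 reads of it. Whether the groups differed in the number of cells with UGP or in its level per cell was not tested. The difference was 18.4 points (5.6 to 31.3) and 20.7 points within plates, with a higher share on 11 plates and a lower one on 2. Such counts of plates lean to lower for genes found in a minority of cells. Only 9 plates had at least 5 Ubx MNs, and a few cells can all miss such a gene. Mgat2, another enzyme of glycan building, was in 36.5% of Ubx MNs and 22.2% of the others, with a higher share on 7 plates and a lower one on 7. Ubr1, a ubiquitin ligase gene, was in 37.8% and 23.1%, CenG1A, which encodes an Arf GTPase-activating protein, in 29.7% and 15.7%, and gol, which encodes a RING-finger protein, in 25.7% and 13.1%. Over plates, Ubr1 and gol were each higher on 8 and lower on 7, and CenG1A was higher on 10 and lower on 4. The zinc-finger transcription factor gene hkb, needed in some embryonic neural lineages, was in 19 Ubx MNs (25.7%) at 0.227 to 120.9 reads per 10000 counts and in 14.8% of the others, a difference of 10.9 points (0.53 to 22.9). Mob3, of the Mob kinase-regulator family, was in 12 Ubx MNs (16.2%) and 5.13% of the others. CG34133, CG4645, CG9855, CG4596 and Txl were 10.7 to 12.9 points more frequent over all cells, and eIF3e, a subunit gene of a translation initiation factor, 10 points. CG4596 was higher on 5 plates and lower on 9, Txl on 6 and 7 and CG9855 on 6 and 6. Within plates CG4596, Txl and CG9855 were still more frequent, by 11.7, 10.5 and 10.6 points. For CG32581 (now sordd2) and Ppa the interval of the difference included 0.

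The less often detected genes were led by CG7518, found in 15 Ubx MNs (20.3%) and 40.7% of the others, a difference of −20.5 points (−30.5 to −8.36). Its call rests on the minimum of 10 reads, since with a minimum of 1 read the difference was 0.15 points. Shaw, which encodes a voltage-gated potassium channel, was in 21 Ubx MNs (28.4%) at 0.164 to 12.8 reads per 10000 counts and in 46.7% of the others at 0.108 to 16.4 reads. Its difference was −18.3 points (−29.6 to −5.52) and −17.7 points within plates. The share of Shaw in the Ubx MNs was lower on 12 plates and higher on 2, a count that leans to lower as said above. NK7.1, a homeodomain gene, was in 9 Ubx MNs (12.2%) at 0.788 to 8.04 reads per 10000 counts and in 98 others (27.9%), a difference of −15.8 points (−23.9 to −5.03). The zinc-finger gene noc was in 9 (12.2%) at 0.385 to 31.2 reads per 10000 counts and in 95 others (27.1%), a difference of −14.9 points (−23.04 to −4.2). Here too the cells that had the gene overlapped in level with those of the comparison, and fewer Ubx MNs reached 10 reads of it. Genes of chromatin and transcription among the 15 lowest were G9a, a histone H3 methyltransferase (18.9% and 36.2%), and Adf1, a sequence-specific factor (16.2% and 30.8%). Dg, the receptor dystroglycan, was in 20.3% and 37.3%, RhoGAP19D in 21.6% and 40.2%, and flw, a protein phosphatase subunit, in 28.4% and 43.3%, which turned to a difference of 0.67 points with a minimum of 1 read. The gene alt was in 3 Ubx MNs (4.05%) and 18.5% of the others. Also among the 15 were CG17233, l(3)L1231, CG10011, CG17839 and CG31650, at −15.6 to −14.8 points.

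**Figure D2:**
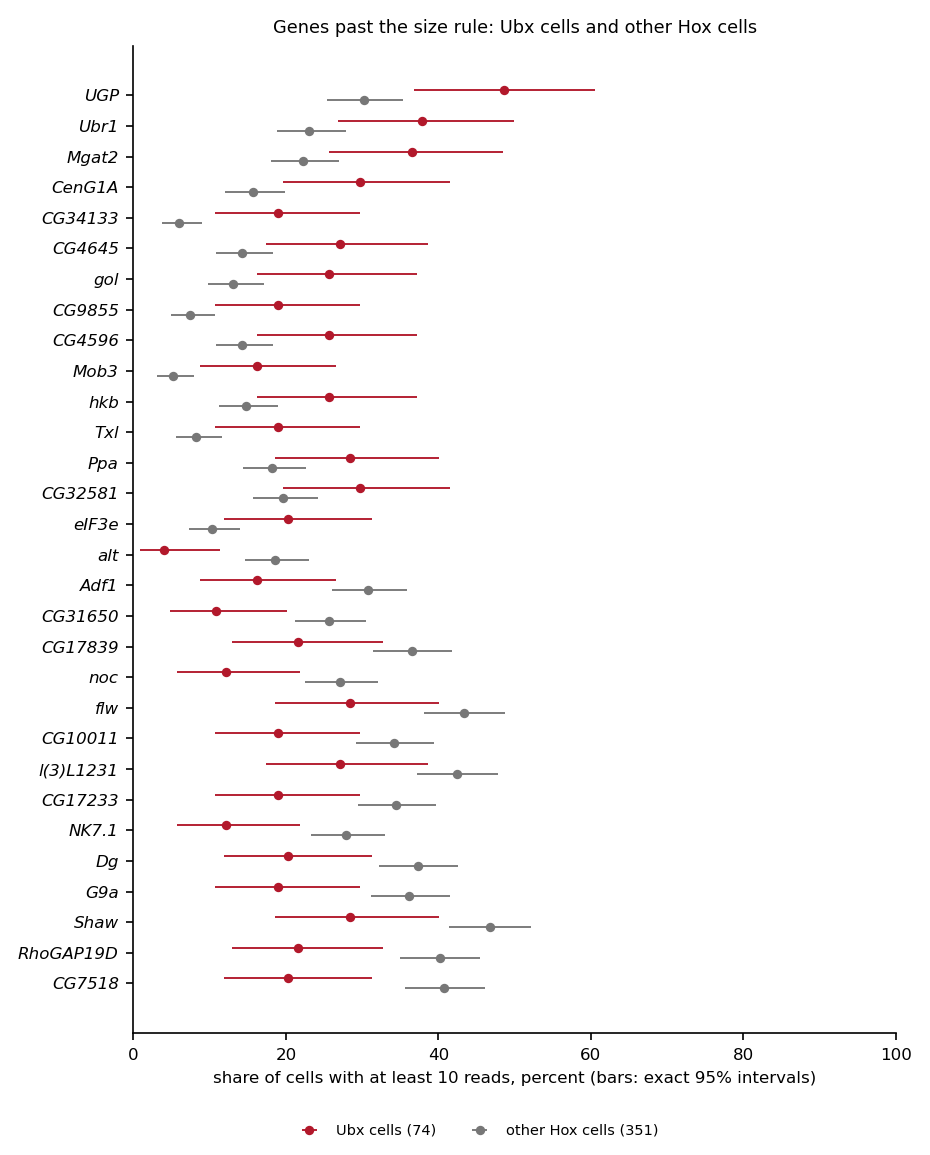
Share of cells with at least 10 reads (percent, horizontal axis) for the 15 more often and the 15 of the 67 less often detected genes with the widest differences, in the 74 Ubx MNs (red) and the other Hox MNs (grey), with exact 95% intervals as bars. UGP stands at 48.6% and 30.2% and CG7518 at 20.3% and 40.7%, and the red bars are long against the gaps between the points.

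Part of the comparison group had no trunk Hox gene, and the Hox cofactor tsh differed most along that line. The zinc-finger gene tsh, which marks trunk segments and works with Hox proteins there, was in 58 Ubx MNs (78.4%) at 0.53 to 50.2 reads per 10000 counts with a median of 4.98, and in 55.8% of the other Hox MNs at a median of 4.46. The difference of 22.5 points (10.2 to 32.8) was the widest of all genes compared, and held on 14 plates against 1, but the ratio of 1.5 was not reached. On the log2(normalised count + 1) scale the level was 5.98 ± 3.04 in Ubx MNs and 4.14 ± 3.65 in the others (SD over the cells). The share of tsh was 4.71% in anterior MNs, 66.7% in Antp, 76% in abd-A and 71.1% in Abd-B MNs. Against the trunk Hox MNs alone, a comparison added after seeing the data, the difference was 6.2 points.

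The homeodomain cofactors stood differently. The Meis-family gene hth was in 47 Ubx MNs (63.5%, 51.5 to 74.4%) at 0.599 to 34.7 reads per 10000 counts. That share lay beside the 65% of abd-A MNs, below the 85.9% of anterior and 86.7% of Antp MNs, and above the 42.1% of Abd-B MNs. The Pbx-family gene exd was in 32 Ubx MNs (43.2%, 31.8 to 55.3%). Its share was 43.5% in anterior, 51.1% in Antp, 27% in abd-A and 28.9% in Abd-B MNs. Of the neighbours in this order, the Ubx and abd-A MNs differed in exd by 16.2 points (1.13 to 30.9), and the Ubx and Antp MNs in hth by −23.2 points (−37.7 to −5.84). The tsh-related gene tio was rare, in 8.11% of Ubx MNs and 9.12% of the others.

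Along the 5 Hox groups some genes had like shares in Ubx and abdominal MNs, and 5 of these, chosen after their values were seen, are given here. The GATA factor gene grn, needed by motor axons that grow dorsally, was in 28.2% of anterior, 33.3% of Antp, 56.8% of Ubx, 61% of abd-A and 48.8% of Abd-B MNs. The LIM-homeodomain gene Lim1 was in 47.1%, 53.3%, 74.3%, 79% and 70.2% in the same order. For noc the shares were 50.6%, 44.4%, 12.2%, 12% and 16.5%, and for Akap200, which encodes an anchor of protein kinase A, 54.1%, 71.1%, 27%, 22% and 33.9%. The gene br, an ecdysone-response zinc-finger gene also known from neuronal birth order, was in 60%, 62.2%, 33.8%, 33% and 49.6%. Other genes lay nearer to the Antp MNs, such as exd, above, and CG43222, in 64.4% of Antp, 50% of Ubx and 29% of abd-A MNs.

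**Figure D3:**
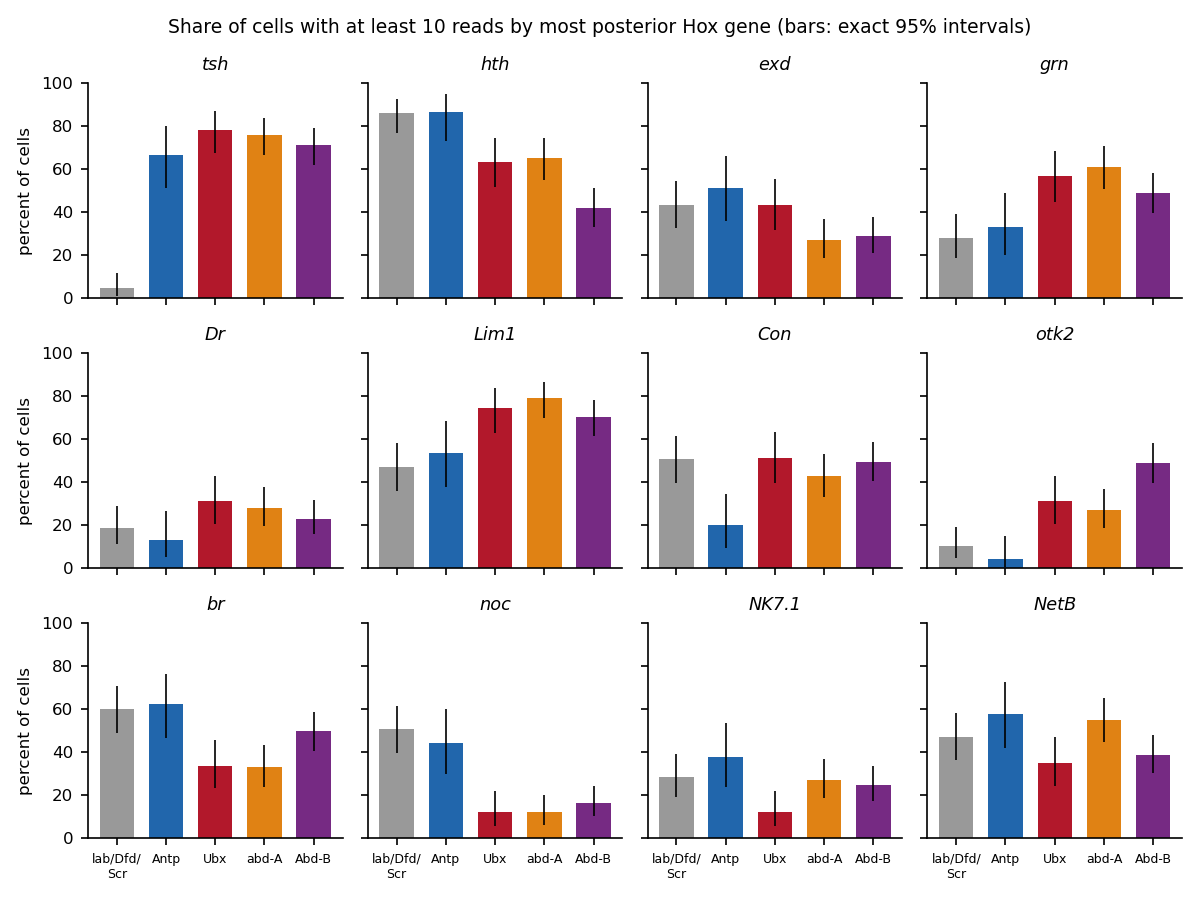
Share of MNs with at least 10 reads (percent) of 12 genes in the 5 groups set by the most posterior Hox gene, with exact 95% intervals as bars. The Ubx MNs (red) stand beside the abd-A MNs for hth, grn, Lim1, br and noc, with 12.2% and 12% for noc, and NK7.1 and NetB are lower in Ubx than in abd-A MNs, with 12.2% against 27% for NK7.1.

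Directly against the 45 Antp MNs, 76 of 5027 genes were past the size rule as more often detected in Ubx MNs (1.51%), and 13.4% as less often detected, together 14.9%. This comparison was shifted as a whole: the median difference over its genes was −3.78 points, and a median of 1150 genes per cell reached 10 reads in Ubx MNs against 1309 in Antp MNs, at like total counts. After thinning every cell to 50000 reads these shares of genes were 1.72% and 12.1%. The part of the number of genes per cell in the single differences was not tested. The size rule also takes no account of group size, and in smaller groups counting error carries more genes past it. The percentages past the rule, here and in the comparisons below, are therefore no measure of how near the groups stand to each other. The more often detected genes went against the shift. Connectin (Con), a cell adhesion protein of some MNs and their muscles and a known Ubx target, was in 38 Ubx MNs (51.4%) at 0.116 to 47.7 reads per 10000 counts and in 9 Antp MNs (20%), a difference of 31.4 points (12.5 to 47.1). Neuroligin 3 (Nlg3), a synaptic adhesion gene, was in 93.2% and 64.4%, and otk2, a receptor-like gene of Wnt signalling, in 23 (31.1%) and 2 (4.44%), a difference of 26.6 points (11.8 to 39.1). Wdr62, a spindle and centrosome gene, was in 63.5% and 37.8%. The difference for grn was 23.4 points (3.7 to 41.02). Among the less often detected genes Akap200 had the widest difference, −44.1 points (−59.9 to −24.8). CG15765 (33.8% and 71.1%), RpL24-like (18.9% and 53.3%), noc (12.2% and 44.4%) and the kinase gene Hipk (35.1% and 66.7%) followed. Con was also in 50.6% of anterior, 43% of abd-A and 49.6% of Abd-B MNs, so that its low share was that of the Antp MNs. For otk2 the shares were 10.6% in anterior, 27% in abd-A and 48.8% in Abd-B MNs, so that its highest share was that of the Abd-B MNs.

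Against the 100 abd-A MNs, 2.13% of 5310 genes were past the rule as more often detected in Ubx MNs. As less often detected 72 genes were past it (1.36%), together 3.48%, with a median difference of 0.76 points. Depth differed here, with a median of 348408 total counts in Ubx MNs and 284210 in abd-A MNs. A median of 1150 and 1060 genes per cell was detected. After thinning every cell to 50000 reads the shares of genes past the rule were 1.86% and 1.5%. The part of depth in the single differences was not tested. The Netrin gene NetB, whose protein guides axons and is recognised by subsets of MNs, was in 26 Ubx MNs (35.1%) at 0.377 to 37.4 reads per 10000 counts and in 55 abd-A MNs, a difference of −19.9 points (−34.5 to −4.1). CG7518 and flw (28.4% and 50%), at −1.7 and −8.97 points with a minimum of 1 read, rhea, which encodes the integrin partner talin (10.8% and 32%), and the ribosomal protein gene RpL7 (39.2% and 59%) were also lower in share. CG15431 was in 52.7% of Ubx and 28% of abd-A MNs, a difference of 24.7 points (9.2 to 39.2). It was followed by CG16711 (62.2% and 41%), CG43222, now the metallothionein gene MtnF (50% and 29%), yps, an RNA-binding protein gene (41.9% and 21%), and RpL9 (60.8% and 40%). The shares of grn, Lim1, hth, noc and br differed from those in abd-A MNs by −4.68 to 0.78 points, with intervals as wide as −19.6 to 11.2 points for grn. Of these, grn, Lim1, noc and br were chosen above for their like shares, so that small differences follow from the choice. Akap200, chosen with them, is not part of this range.

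Markers listed as dorsal or ventral were read as shares of cells with any gene of a list. A dorsal marker (Dr, grn or eve) was in 46 of 74 Ubx MNs (62.2%, 50.1 to 73.2%), and a ventral one (Lim3, tup, exex, HGTX or vnd) in 12 (16.2%, 8.67 to 26.6%). The ventral share depended on the minimum and on the members: it was 33.8% with a minimum of 1 read, and 64.9% (52.9 to 75.6%) with all 8 genes of the ventral list, which adds the common genes vvl, Oli and Fas3, against 69.8% of the other Hox MNs. This wider list was added after seeing the data. With the 5 genes, both kinds were in 6 cells and neither in 22. The dorsal share was 34.1% in anterior, 33.3% in Antp, 67% in abd-A and 54.5% in Abd-B MNs, and the ventral share 29.4%, 17.8%, 15% and 24%. Among the members of the dorsal list grn carried the share, with Dr in 23 Ubx MNs (31.1%) and eve, needed for dorsal projections of a few MNs, in 2. The islet gene tup was in 0 Ubx MNs, which allows up to 4.86%, and in 0 Antp and 0 abd-A MNs. Lim3, which works with tup in ventrally projecting MNs, was in 4 (5.41%), exex, the HB9 homologue, in 1, and HGTX, the Nkx6 gene, in 1. The largest part of the ventral share came from vnd, in 7 (9.46%), so that this share is no count of ventrally projecting MNs. Of the genes of both lists that were tested, 2 dorsal and 8 ventral ones with vvl, Oli and Fas3 included, 0 were past the rule against the other Hox MNs (1.22% of all genes). Their median differences were 10.2 and −2.13 points, against −0.79 for all genes.

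Homeodomain genes varied strongly among the Ubx MNs. Of 50 homeodomain genes outside the Hox cluster, a Ubx MN had 1 to 10 with a median of 6, as in the other Hox MNs (median 6). Over the 74 cells 72 distinct sets were counted, and 4 cells shared their set with another. Detection of single genes in SMART-Seq2 is incomplete, so that a set is what was seen at 10 reads. Lim1 was in 55 Ubx MNs, zfh2 in 54, hth in 47, mirr in 33, exd in 32, vvl in 30 and zfh1, known from axon exit of MNs, in 28. Altogether 17 genes were in at least 5 Ubx MNs and 11 in none. The most common pairs were zfh2 with Lim1 (38 cells), hth with Lim1 (35), hth with zfh2 (34) and exd with zfh2 (27), followed at 24 cells by Lim1 with mirr and vvl with mirr. The product of the single shares gives 40.1, 34.9, 34.3, 23.4, 24.5 and 13.4 cells in the same order, and of these pairs vvl with mirr lay farthest above it.

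Some pairs of less common genes were nearly always or never found together. These pairs were chosen after their values were seen. The POU gene vvl and the Iroquois gene mirr shared 24 of the 30 vvl cells, while mirr was in 33 of all 74. The orthodenticle gene oc was in 17 Ubx MNs, all of which had Lim1, and 9 of the 10 cells with the homeodomain gene dve had oc. Dr and oc, in 23 and 17 Ubx MNs, met in 0, and the Pax6 gene ey, in 11, met neither mirr nor vvl nor oc, while 8 of its 11 cells had Dr. In the other Hox MNs vvl and mirr shared 28.2% of the cells, against 32.4% of the Ubx MNs, 69 of 78 oc cells had Lim1, Dr and oc met in 1 cell, and ey met mirr in 0, vvl in 2 and Dr in 28 of 41 cells. There 28 of the 44 dve cells had oc.

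**Figure D4:**
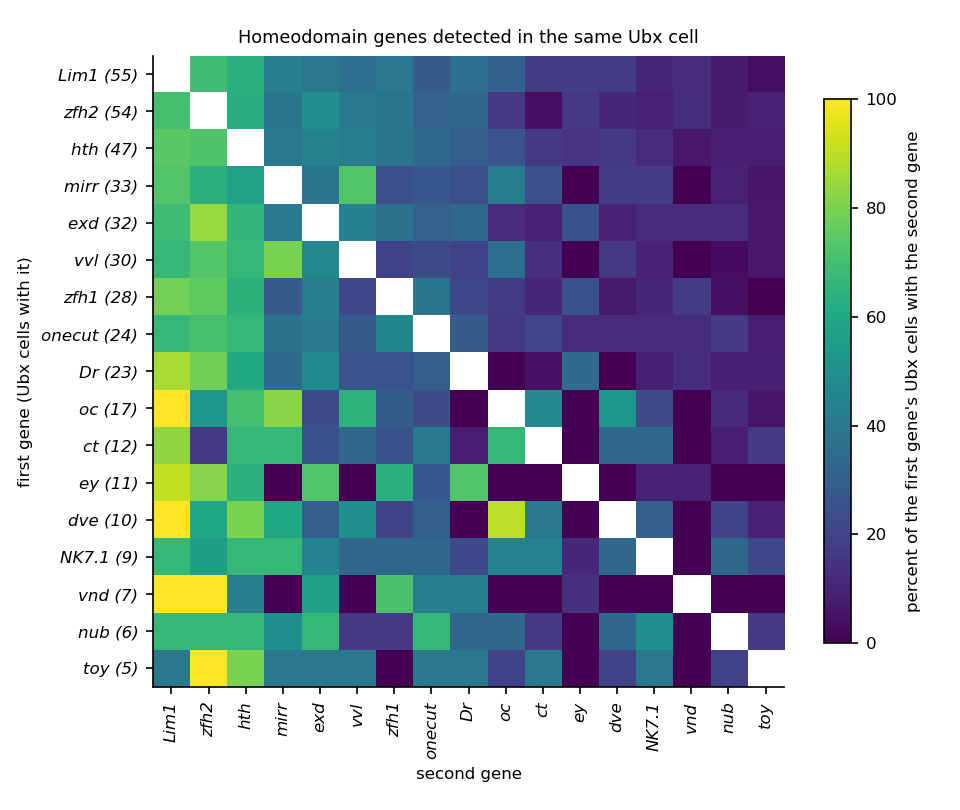
For 17 homeodomain genes found in at least 5 of the 74 Ubx MNs, the colour gives the percent of the cells with the first gene (rows, with their number) that also had the second gene (columns). Lim1 fills the row of oc with 17 of 17 cells, vvl and mirr share 24 cells, and Dr and oc share 0.

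Of 38 other homeodomain genes compared with the other Hox MNs, 0 were past the rule as more often and 1, NK7.1, as less often detected, near the 0.224% and 1% of all genes. Their median difference was −0.36 points. Lim1 (9.37 points, −3.15 to 20.2) and zfh2 (8.3 points, −4.32 to 19.3) were the next widest. Among 12 temporal and birth-order factors 0 passed, and br had the widest difference (33.8% and 49%), followed by sqz (8.11% and 14.5%) and dac (24.3% and 19.1%). Of 23 other neuronal transcription factors 0 passed.

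Among cell surface genes of wiring few were past the size rule, and all of these were less often detected in Ubx MNs. Of all genes 1.22% were past it, and 1% as less often detected. Whether the surface genes differ from all genes in this was not tested. All 21 genes of the dpr family, whose immunoglobulin proteins bind those of the DIP family, were compared and 0 were past the rule, with a median difference of 0.91 points. Their shares in Ubx MNs ran from 2.7% for dpr16 to 77% for dpr13, which was in 57 Ubx MNs at 0.375 to 39.7 reads per 10000 counts and in 63.2% of the others, a difference of 13.8 points (1.45 to 24.2). Next was dpr1, in 37.8% and 48.1%. Of 10 DIP genes 0 passed as well, with shares from 0 for DIP-zeta to 24.3% for DIP-beta and DIP-delta. DIP-beta, in 18 Ubx MNs at 0.284 to 11.1 reads per 10000 counts and in 14.5% of the others, differed by 9.79 points (−0.31 to 21.7).

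The beat genes and their side partners, which act in the release of motor axons from bundles and in target choice, included 1 of 22 past the rule. This was CG34371 (now side-V), in 17.6% of Ubx MNs and 29.1% of the others, with an interval that reached 0.1 points, and its share was 48.2% in anterior MNs. Among 32 axon guidance genes 0 were more often and 2 less often detected, robo1 (10.8% and 22.5%) and sli (20.3% and 31.6%), a midline receptor and its ligand, beside 1% of all genes. The interval for sli, −21.3 to 0.62 points, included 0. NetB (35.1% and 47.9%) had the widest difference without reaching the ratio. In adhesion, 1 of 32 was less often detected, sns, a muscle fusion protein also made by neurons (17.6% and 31.9%), and in Nlg3 the share was 93.2% against 83.5%.

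Of 43 channel and receptor genes Shaw alone was past the rule, beside 1.22% of all genes. A pair of receptors differed the other way without reaching the ratio: the octopamine receptor gene Octbeta2R was in 55 Ubx MNs (74.3%) at 0.176 to 18.2 reads per 10000 counts and in 58.4% of the others, and the metabotropic glutamate receptor gene mGluR in 46 (62.2%) and 47%. Their differences were 15.9 points (3.31 to 26.8) and 15.2 points (1.98 to 27.4). Of 22 genes of the synaptic machinery 0 passed, and Cbp53E, a calcium-binding protein gene, had the widest difference (44.6% and 58.1%). Med, the Smad partner of BMP signalling that MNs receive from muscle, was the only 1 of 9 BMP pathway genes past the rule (1.22% of all genes), in 7 Ubx MNs (9.46%) and 21.9% of the others. Of 12 genes of the Polycomb and trithorax groups, which keep Hox genes off or on, 0 passed, and Psc (36.5% and 51.9%) had the widest difference. Psc was in 62.4% of anterior, 64.4% of Antp, 48% of abd-A and 43% of Abd-B MNs. Genes known as Ubx targets in other tissues passed in 0 of 8 cases, with ct at 16.2% and 24.5%.

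The last comparison split the Ubx MNs by Antp, 47 with and 27 without. With these numbers 10% of 3921 genes were past the rule as more often detected with Antp and 8.08% as less often detected, together 18.1%. Cells with Antp had a median of 335817 total counts and those without 476918, and after thinning to 50000 reads a median of 1112 and 1012 genes was detected. The shares of genes past the rule were then 11.8% and 6.5%. The part of this in the single differences was not tested. Neb-cGP was in 37 of 47 cells with Antp (78.7%) and 11 of 27 without (40.7%), a difference of 37.98 points (13 to 59.2). RpL36 (72.3% and 37%), Mob2, a kinase cofactor gene of neurites (53.2% and 18.5%), Ssdp, a partner of LIM-homeodomain complexes (80.9% and 48.1%), and Ndfip, an adaptor of ubiquitin ligases (51.1% and 18.5%), followed. In the other direction CG34114, now side-VI and a receptor of the side family, was in 8 of 47 (17%) and 14 of 27 (51.9%), a difference of −34.8 points (−56.4 to −10.6). CG8176 and CG42784 were each in 5 and 12 cells (10.6% and 44.4%), CG17514 in 19.1% and 48.1%, and RhoGAPp190 in 48.9% and 77.8%.

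**Figure D5:**
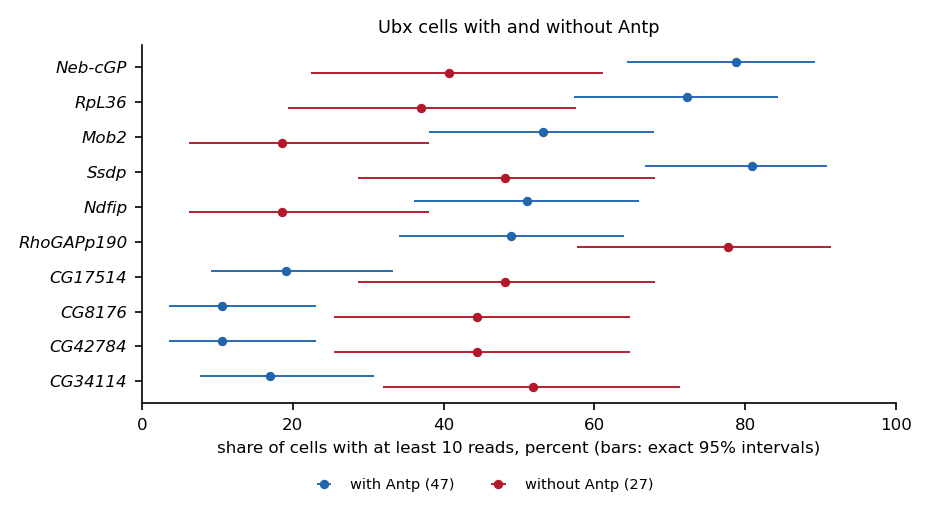
Share of cells with at least 10 reads (percent, horizontal axis) in the 47 Ubx MNs with Antp (blue) and the 27 without (red), with exact 95% intervals as bars, for the 5 genes with the widest difference each way. Neb-cGP stands at 78.7% and 40.7% and CG34114 at 17% and 51.9%, and the bars of several genes overlap.

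Genes that differed in share between Ubx and Antp MNs were also read inside the split by Antp. With and without Antp the shares were 63.8% and 63% for hth, 53.2% and 63% for grn, 72.3% and 77.8% for Lim1, 55.3% and 44.4% for Con, and 25.5% and 40.7% for otk2. The interval of each difference included 0 and was wide, as −22.5 to 25.5 points for hth, so that a difference was not detectable at this number of cells. The share with a dorsal marker was 57.4% (42.2 to 71.7%) with Antp and 70.4% (49.8 to 86.2%) without, and the ventral share 14.9% and 18.5%.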

How the data were processed

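The series holds SMART-Seq2 libraries of 999 single MNs on 16 plates. Per the labels and the methods, the authors removed poly-A tails, assigned reads to the BDGP6 cDNA with kallisto 0.43.0, kept cells with at least 10 reads in each of 500 genes, and deposited estimated counts per gene, rounded and not normalised, for 7279 genes. Over these genes the lowest Hox MN had 414 at 10 reads, under that limit. The single cell files of transcript values were not used. Summed over genes, a cell had 100027 to 5834773 counts, and with the number of cells they set the precision.

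The groups were made from the reads of the Hox genes, twit and Vmat: 733 cells had low twit and Vmat, 425 of these a targeted Hox gene, 74 were Ubx MNs and 351 other Hox MNs (85 anterior, 45 Antp, 100 abd-A, 121 Abd-B). The members and gene lists were chosen with earlier results of these data known. Detection meant at least 10 reads. Genes needed detection in 5 of the cells compared, and the 9 genes of the selection were left out. Shares have exact Clopper-Pearson intervals at 95%, and the interval of a difference combines both, so that all cover counting error only (PCR copies are not independent molecules). The size rule was 10 percentage points and 1.5 times. Genes were named as the 15 widest differences each way past the rule, all Hox, cofactor, dorsal and ventral markers, the 3 widest of each other list, 5 each way of the other comparisons and the 5 most common homeodomain pairs; others say that they were chosen after their values were seen. Levels are reads per 10000 counts, or log2 of normalised counts plus 1. Alternatives were a minimum of 1 read, thinning to 50000 reads with 2 as the minimum, 5 or 20 Ubx reads, no read of abd-A or Abd-B, differences within plates, other comparison cells, all 8 ventral genes, no filter, a size rule of 15 points and 2 times, mean normalised counts (totals, or TMMwsp of edgeR 4.0.16) and leaving out each plate. Scripts (Python 3.11.15, scipy 1.17.1) were tested on simulated data. Gene positions are those of Ensembl BDGP6.54.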

Additional observations from a re-analysis of the deposited data

How the results depend on the processing

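For the 36 named genes past the size rule the difference of shares kept its direction under the 8 settings computed per gene and without each plate, except CG7518 (0.15 points) and flw (0.67 points) with a minimum of 1 read. In mean normalised counts l(3)L1231 turned with totals (35.8 in Ubx MNs and 34.3 in the others). The share of genes more often detected than in the other Hox MNs, 0.224%, was 0.344% with at least 20 Ubx reads (71 cells), 1.27% for the 61 cells without a read of abd-A or Abd-B, 0.358% within plates, 0.417% against all MNs with low twit and Vmat, and 0.391% against trunk Hox MNs, which were added after seeing the data. With 15 points and 2 times it was 0, and the less often detected genes were 2 (0.0298%). A 2-fold difference of mean normalised counts was met by 9.21% of genes upwards and 18.6% downwards with totals, and by 9.43% and 21.3% with TMMwsp. That rule counts genes carried by few cells and needs no difference in share. The share with a ventral marker, 16.2%, was 33.8% with a minimum of 1 read and 64.9% with all 8 genes of its list, added after seeing the data. Leaving out 1 plate gave 0.21 to 0.535% more often and 0.688 to 1.75% less often detected genes, 60.9 to 66.1% with Antp, 58.1 to 65.2% with a dorsal and 14.5 to 17.6% with a ventral marker. The number of Ubx MNs limits every share, and the absence of labels for embryos leaves no replicates. No paired analysis was possible because the labels pair no replicates, and plates, which hold both kinds of cells, gave the differences within plates.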

Other observations

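Neuropeptide genes marked small parts of the Ubx MNs. Proctolin (Proc), the peptide cotransmitter of some MNs, was in 12 cells (16.2%, 8.67 to 26.6%), against 8.83% of the other Hox MNs, a difference of 7.38 points (−0.92 to 18.1). Dh44, a diuretic hormone gene, was in 1 Ubx MN (1.35%) and 14.1% of anterior MNs. Of 14 neuropeptide genes 0 were past the size rule, which 1.22% of all genes passed, and Phm, an enzyme of peptide processing, was in 37.8% and 32.5%. The glycolysis genes were common: Gapdh1 was in 87.8% of Ubx MNs and Pgk in 71.6%, and 0 of 12 were past the rule. Cell death genes differed in how common they were: Dcp-1, an effector caspase gene, was in 12.2% of Ubx MNs and 6.84% of the others (5.32 points, −1.86 to 15.3), the death activators grim and skl in 3 and 4 Ubx MNs, and the inhibitor Diap1, chosen after its values were seen, in 58.1% and 55.3%. Of 7 such genes 0 were past the rule. Of 15 stress genes 0 passed, with Hsp27 in 2.7% and 9.12%. Beside 1.22% of all genes, a count of 0 in lists of these sizes says little about them.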
